A study of Anser anser with 16 samples.

Results

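CISH, SOCS1, SOCS2, IRS2 and IGFALS are 5 genes that growth hormone (GH) switches on, or that set how strongly cells answer GH and the insulin-like growth factors (IGFs). They were taken by gene symbol and were 5 of the 19448 genes in the main count table. RNA sequencing covered the pituitary and the hypothalamus of 8 male White Kołuda geese, all of strain W33 and all sampled on day 108. Birds 33, 37, 38 and 40 had a low growth rate and birds 49, 50, 52 and 54 a high one, which gave 4 libraries in each of 4 groups, and the study asked what differs along this axis with growth rate. All birds were reared alike, indoors first and then with free range, and carried no treatment. The labels do not say how a bird was assigned to a growth rate.

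GH binds its receptor GHR and activates the kinase JAK2, which activates STAT transcription factors. STATs induce genes of the CIS and SOCS family, whose proteins bind the activated receptor or kinase through an SH2 domain, recruit a ubiquitin ligase through a SOCS box and so damp the signal that induced them. In mice, loss of SOCS2 leads to overgrowth. The pituitary makes GH, and somatotrophs and other pituitary cells also carry GH and prolactin receptors, so the loop can act on the gland that secretes the hormone.

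The 5 genes have different places in this loop. CISH (cytokine-inducible SH2-containing protein) competes with STATs at phosphorylated receptors, and SOCS2 binds the phosphorylated GH receptor and marks it for degradation. SOCS1 blocks the catalytic site of JAK kinases and is best known as a brake on interferon signalling. IRS2 is a docking protein that couples the insulin and IGF receptors to PI3 kinase, and in mammals FOXO transcription factors induce it when insulin signalling is low. IGFALS encodes the acid-labile subunit, which holds IGF and its binding protein in a large complex in blood and is made in mammals mainly by the liver under GH.

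All 5 are annotated as protein-coding. CISH (ENSACDG00005000065) lies on scaffold KZ155844.1 from 13846955 to 13853416 and has 3 annotated transcripts. SOCS1 (ENSACDG00005016544) lies on KZ156170.1 from 205874 to 206497, with 1 transcript over a span of 624 bases. SOCS2 (ENSACDG00005010781) lies on KZ155860.1 from 3501250 to 3501964, with 2 transcripts over a span of 715 bases. IRS2 (ENSACDG00005015073) lies on KZ155941.1 from 214412 to 219773 with 8 transcripts, and IGFALS (ENSACDG00005004869) on KZ155843.1 from 4295240 to 4298779 with 5. The labels and file headers used here do not name the genome build of these coordinates.

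Depth was 8543585 to 14456667 counts per pituitary library and 9186728 to 18068056 per hypothalamus library. Every member passed the filter on low counts in both tissues. Levels are given in CPM, where each library's counts are brought to the same total after TMM scaling. They are not divided by gene length, so they are compared between samples and not between genes. Sums over cell marker lists are the exception and use library totals alone, without TMM scaling. The tissue labels were checked against markers. PRL, the prolactin gene of lactotrophs, was 25306 CPM on average in the pituitary and 13.4 CPM in the hypothalamus, and the astrocyte gene GFAP was 12.8 CPM and 3262 CPM.

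The inhibitors CISH and SOCS2 were far higher in the pituitary, IGFALS was higher in the hypothalamus, and SOCS1 and IRS2 were not called between the tissues. With all 16 libraries scaled together, CISH was 62.1 ± 25.9 CPM in the pituitary and 4.03 ± 1.20 CPM in the hypothalamus (SD, n = 8 birds). The lowest pituitary library, at 37.2 CPM, stood above the highest hypothalamus library, at 5.64 CPM. The difference was 3.88 ± 0.21 (log2, SE), or 14.7-fold, with an adjusted p of 9.78e-11 in edgeR's quasi-likelihood test with Benjamini-Hochberg adjustment. Between tissues a call needed a 2-fold difference as well as an adjusted p below 0.05, which 4948 of 14394 genes had (34.4%), so a call here is a common outcome. Of those genes, 2148 (14.9%) were higher in the pituitary and 2800 (19.5%) lower.

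SOCS2 was further apart between the tissues than CISH, at 24.4 ± 4.94 CPM in the pituitary and 0.855 ± 0.166 CPM in the hypothalamus (SD, n = 8). It ran from 17.3 to 33.9 CPM in pituitary libraries and from 0.611 to 1.09 CPM in hypothalamus libraries, where it rested on only 6 to 17 counts each. The log2 difference was 4.81 ± 0.17 (28.1-fold, adjusted p = 4.33e-13 in edgeR). Of 15 listed genes of pituitary endocrine cells, 8 were measured. The hypothalamus level of CISH was 6.49% of its pituitary level and that of SOCS2 was 3.51%, against 0.0531% for PRL, 0.0764% for CGA, 0.273% for POU1F1, 0.300% for POMC and 0.478% for AVPR1B. Both inhibitors stood higher in the hypothalamus, relative to the pituitary, than these 5 endocrine genes. The other measured endocrine genes, TBX19, NR5A1 and PCSK1, had tissue log2 differences of 5.03 ± 0.15, 4.30 ± 0.24 and 0.79 ± 0.09. NR5A1 and PCSK1 thus stood higher in the hypothalamus, relative to the pituitary, than SOCS2, and PCSK1 also higher than CISH. The part of pituitary RNA in the hypothalamus levels was not tested. Fewer cells that express a gene and less RNA per cell cannot be told apart in bulk tissue.

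IGFALS went the other way. It was 1.67 ± 0.468 CPM in the pituitary and 9.77 ± 0.825 CPM in the hypothalamus (SD, n = 8), and the ranges of 1.22 to 2.52 CPM and 8.75 to 11.6 CPM did not touch. IGFALS was 5.82-fold lower in the pituitary, with a log2 difference of -2.54 ± 0.15 and an adjusted p of 3.30e-10 in edgeR. Its pituitary level was 17.1% of its hypothalamus level, against 0.393% for GFAP, 1.20% for AQP4 and 1.30% for the neuronal transporter gene SLC17A6. The other measured neuron and astrocyte genes lay on both sides of IGFALS. Less far apart were NEFL (log2 difference -2.43 ± 0.10), NEFH (-1.79 ± 0.10), STMN2 (-1.78 ± 0.09), FGFR3 (-1.17 ± 0.16) and RBFOX3 (-0.94 ± 0.13). Further apart were ELAVL4, GJA1, GAD2, SNAP25, SLC1A2, GAD1, SYT1 and AGT, from -2.62 to -5.98. Of 9 listed hepatocyte genes, 3 were measured. Their summed level was 1499 to 2258 CPM in the hypothalamus and 27.1 to 99.7 CPM in the pituitary, with none at 0 in every library. Their part in the IGFALS difference was not tested. APOA1, an apolipoprotein gene, was lower in the pituitary by a log2 difference of -5.14 ± 0.34 and SERPINC1 by -1.20 ± 0.12. AHSG had a log2 difference of 0.50 ± 0.27 that did not pass. The 3 genes did not move alike, so their sum is not a measure of hepatocytes.

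SOCS1 had nearly equal means in the tissues, 2.54 ± 1.09 CPM in the pituitary and 2.57 ± 0.774 CPM in the hypothalamus (SD, n = 8). Its log2 difference was -0.01 with a 95% interval from -0.56 to 0.54 (adjusted p = 0.969 in edgeR). IRS2 was 45.6 ± 24.8 CPM in the pituitary and 31.4 ± 6.01 CPM in the hypothalamus. Its log2 difference was 0.47 ± 0.22 (adjusted p = 0.0702 in edgeR) and the tissues overlapped. With the bird as a replicate block it was 0.39 at an adjusted p of 0.0494, still under a 2-fold difference. It ran from 16.7 to 83.4 CPM between pituitaries and from 23.0 to 42.3 CPM between hypothalami.

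**Figure D1:**
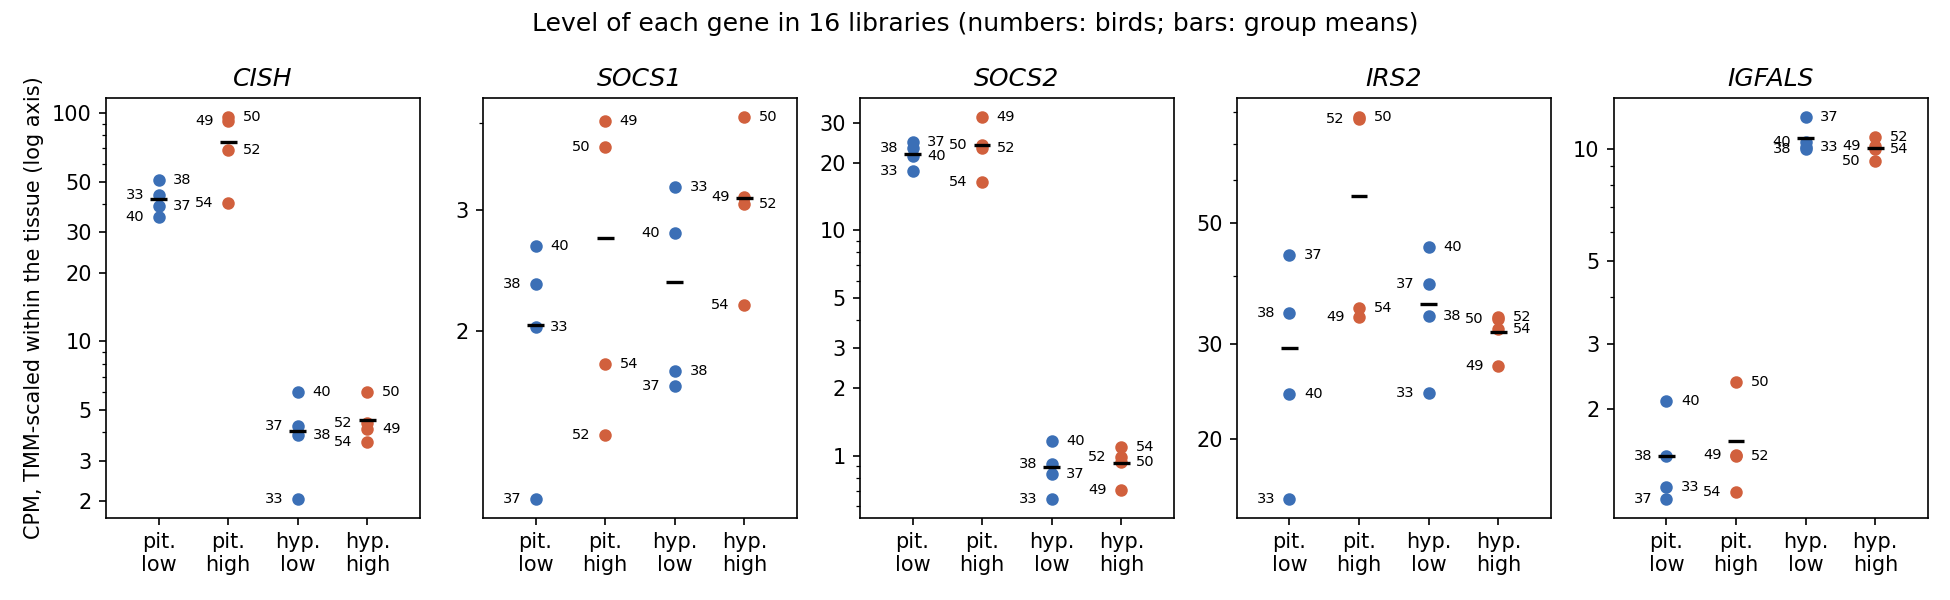
Level of each of the 5 genes in every library, in CPM scaled within the tissue on a log axis, by tissue (pit., pituitary; hyp., hypothalamus) and growth rate; points are libraries numbered by bird and short bars are means of 4. CISH and SOCS2 sit far higher in the pituitary, IGFALS in the hypothalamus, and low-growth and high-growth birds overlap for every gene in both tissues.

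No gene of the 13471 tested in the pituitary passed an adjusted p of 0.05 between growth rates in edgeR (0%), and the 5 members did not either. Without adjustment, 266 genes (1.97%) had p under 0.05, 171 of them higher (1.27%) and 95 lower (0.705%) at high growth rate. Of the 5 members, CISH and IRS2 were among the 171. The growth groups did not overlap for 195 genes (1.45%), none of them a member. These shares are the background for the pituitary growth counts. Levels in the growth comparisons were scaled within the tissue.

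CISH was the member with the smallest p. In the pituitaries of the low-growth birds 33, 37, 38 and 40 it was 43.7, 39.0, 50.9 and 35.2 CPM. In the high-growth birds 49, 50, 52 and 54 it was 91.9, 96.0, 68.9 and 40.5 CPM. Birds 49, 50 and 52 stood above every low-growth bird, and bird 54, the shallowest pituitary library, lay among the low-growth birds. The group means were 42.2 ± 6.78 CPM and 74.3 ± 25.5 CPM (SD, n = 4), from 339 to 1299 counts per library. The log2 difference was 0.82 ± 0.25 (95% interval 0.27 to 1.37), a 1.76-fold higher mean, with an unadjusted p of 0.00799, rank 36 of 13471, and an adjusted p of 1.00 in edgeR.

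IRS2, the insulin and IGF receptor docking gene, had the largest fitted difference of the 5. It was 15.6, 43.6, 34.2 and 24.3 CPM in low-growth birds 33, 37, 38 and 40 and 33.6, 78.4, 77.8 and 34.9 CPM in high-growth birds 49, 50, 52 and 54. Birds 50 and 52 were about as high as each other and above all low-growth birds, while birds 49 and 54 lay between low-growth birds 40 and 37. The means were 29.4 ± 12.2 CPM and 56.2 ± 25.3 CPM (SD, n = 4). The log2 difference was 0.93 ± 0.38 (95% interval 0.09 to 1.78; 1.91-fold), with an unadjusted p of 0.0330, rank 166, and an adjusted p of 1.00 in edgeR. The birds that were high in CISH and IRS2 were not the same throughout, since bird 49 was high in CISH at 91.9 CPM and low in IRS2 at 33.6 CPM.

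SOCS2, the inhibitor tied to body growth in mice, had a wider range at high than at low growth rate. It was 18.4, 24.8, 23.1 and 21.4 CPM in low-growth birds 33, 37, 38 and 40 and 31.8, 23.9, 23.3 and 16.4 CPM in high-growth birds 49, 50, 52 and 54. The highest and the lowest pituitary were both from high-growth birds. The log2 difference was 0.12 ± 0.19 with a 95% interval from -0.31 to 0.56 (unadjusted p = 0.539 in edgeR).

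SOCS1 rested on 15 to 51 counts per pituitary library. It was 2.03, 1.15, 2.35 and 2.66 CPM in low-growth birds 33, 37, 38 and 40 and 4.03, 3.70, 1.42 and 1.79 CPM in high-growth birds 49, 50, 52 and 54. Birds 49 and 50 were above all low-growth birds and the other two were within their range. The log2 difference of 0.43 ± 0.41 had a 95% interval from -0.50 to 1.36 (unadjusted p = 0.324 in edgeR), which spans lower and higher values.

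IGFALS was barely present in the pituitary, at 10 to 32 counts per library. It was 1.23, 1.15, 1.49 and 2.11 CPM in low-growth birds 33, 37, 38 and 40 and 1.50, 2.37, 1.49 and 1.20 CPM in high-growth birds 49, 50, 52 and 54. The groups covered nearly the same range. The log2 difference was 0.15 ± 0.33 with a 95% interval from -0.59 to 0.90 (unadjusted p = 0.661 in edgeR).

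Markers of other cells moved with some of these libraries. Of 8 listed genes of folliculostellate and stem-like pituitary cells, 4 were measured, and their summed level was 594 to 975 CPM in low-growth and 451 to 524 CPM in high-growth pituitaries, without overlap. Within that list ALDH1A1, a retinoic acid synthesis gene, had a log2 difference of -0.79 ± 0.18 and SOX2 one of -0.28 ± 0.13, neither past the adjusted threshold. The other 2, SOX9 and S100B, had log2 differences of -0.09 ± 0.28 and -0.10 ± 0.74. ALDH1A1 alone of the 4 had an unadjusted p under 0.05 in edgeR, so the sum does not show a shift of all 4. Skeletal muscle genes (3 of 10 measured) summed to 43.3 to 226 CPM in low-growth and 43.2 to 942 CPM in high-growth pituitaries, with the top value in bird 50, and T and B lymphocyte genes (4 of 11 measured) summed to 39.3 to 275 CPM and 30.3 to 461 CPM, again with the top value in bird 50. No measured gene of these lists was at 0 in every library of a group, and the other listed genes were not analysed here. The part of folliculostellate and stem-like cells in the CISH and IRS2 differences was not tested. Without bird 50 the log2 difference was 0.67 for CISH (unadjusted p = 0.0239) and 0.73 for IRS2 (unadjusted p = 0.0920), with adjusted p = 1.00 for both in edgeR.

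In the hypothalamus 0 of 13695 genes were called between growth rates in edgeR (0%), and 456 (3.33%) had an unadjusted p under 0.05, 258 of them higher (1.88%) and 198 lower (1.45%) at high growth rate. None of the 5 members did. The growth groups did not overlap for 271 genes (1.98%), again none of them a member. CISH was 2.05, 4.26, 3.87 and 5.99 CPM in low-growth birds 33, 37, 38 and 40 and 4.15, 6.02, 4.41 and 3.62 CPM in high-growth birds 49, 50, 52 and 54, and its log2 difference was 0.17 ± 0.29. SOCS1 was 3.24, 1.67, 1.75 and 2.77 CPM and 3.13, 4.08, 3.06 and 2.19 CPM in the same order, with a log2 difference of 0.41 ± 0.28 (unadjusted p = 0.174 in edgeR). The 95% interval of the SOCS1 difference included 0 in both tissues.

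SOCS2 in the hypothalamus was 0.648, 0.833, 0.923 and 1.16 CPM in low-growth birds 33, 37, 38 and 40 and 0.704, 0.938, 0.991 and 1.09 CPM in high-growth birds 49, 50, 52 and 54. Its log2 difference was 0.05 ± 0.29, and at 6 to 17 counts per library only large differences could have been seen. IRS2 was 24.4, 38.7, 33.7 and 45.3 CPM in low-growth birds and 27.3, 33.3, 33.6 and 31.9 CPM in high-growth birds, in the same order, so the low-growth birds held both the lowest and the highest value. Its log2 difference was -0.17 ± 0.17 (unadjusted p = 0.316 in edgeR). IGFALS was the steadiest member, at 10.1, 12.2, 10.1 and 10.5 CPM in birds 33, 37, 38 and 40 and 10.2, 9.33, 10.8 and 10.04 CPM in birds 49, 50, 52 and 54. Its log2 difference was -0.09 with a 95% interval from -0.36 to 0.18, the tightest of the 10 growth intervals.

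**Figure D2:**
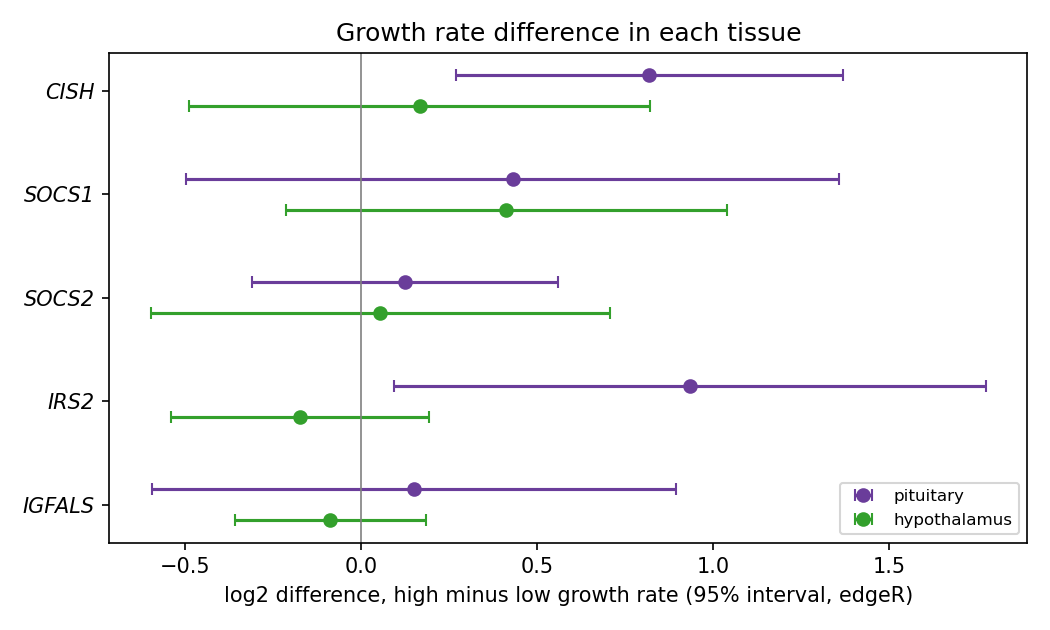
Log2 difference between high-growth and low-growth birds (x axis; points are edgeR estimates, bars their 95% intervals) for each gene (y axis) in the pituitary and the hypothalamus, with 4 birds a group. The intervals of CISH (0.27 to 1.37) and IRS2 (0.09 to 1.78) in the pituitary lie above 0, before adjustment for the 13471 genes tested, and the other 8 cross it.

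Whether growth rate differed in its effect between the tissues was tested directly. No gene of 14394 was called for this interaction in edgeR (0%), and 206 (1.43%) had an unadjusted p under 0.05. For 100 of them (0.695%) the high minus low difference, taken with its sign, was greater in the pituitary. IRS2 was one of the 100. Its pituitary difference exceeded its hypothalamus difference by 1.10 ± 0.45 on the log2 scale (95% interval 0.15 to 2.06, unadjusted p = 0.0266, rank 94, adjusted p = 1.00 in edgeR). With the bird as a replicate block this was 1.05 with an unadjusted p of 0.00910 and an adjusted p of 1.00. CISH gave 0.65 ± 0.41 (unadjusted p = 0.131 in edgeR), so its growth difference was not shown to be larger in the pituitary. SOCS1 gave 0.02 ± 0.51, SOCS2 0.06 ± 0.33 and IGFALS 0.24 ± 0.30.

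The authors' deposited table for the pituitary called CISH and IRS2, with values that differ from the tests above in their p and not in their size. It had CISH at a log2 difference of 0.82 with an adjusted p of 0.000320 and IRS2 at 0.93 with an adjusted p of 6.20e-05. Of 12486 pituitary genes in the authors' deposited table, 51 (0.408%) were called, 33 of them (0.264%) higher at high growth rate, and SOCS1, SOCS2 and IGFALS had an adjusted p of 1. All 5 members had an adjusted p of 1 in the authors' deposited table for the hypothalamus, where 62 genes (0.497%) were called. The sign in these tables was read from the counts, since no header names its direction.

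The authors' deposited tables for their 3 other quantifications gave CISH an adjusted p of 0.000374 (a second gene annotation), 0.0464 (kallisto on a de novo assembly) and 0.831 (Salmon on that assembly). For IRS2 the authors' deposited tables gave 5.02e-05, 0.0107 and 0.188 in the same order. The assembled sequences differ in how much of each gene they hold. By the authors' deposited tables, the assembled CISH matched the chicken protein at 88.4% identity along its whole length, whereas the assembled IRS2 matched 20.4% of the mouse protein. Estimated pituitary counts of IRS2 came to 27.4% of the main table with kallisto and 12.5% with Salmon. Those of CISH came to 114.7% and 47.1%, and those of SOCS2 to 335.3% and 134.9%. IGFALS had no match among the assembled genes.

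Across 17 other ways of fitting the pituitary comparison, the log2 difference ran from 0.67 to 1.02 for CISH and from 0.72 to 1.24 for IRS2. Both were lowest when 1 bird was left out, bird 50 for CISH and bird 33 for IRS2. Without bird 54, CISH had an unadjusted p of 0.000166 and an adjusted p of 0.657 in edgeR. The DESeq2 Wald test gave CISH an adjusted p of 0.674 and IRS2 one of 1.00. The unadjusted p of IRS2 was 0.0760, 0.0809, 0.0920 and 0.0988 without bird 33, 40, 50 or 52. Neither gene passed the adjusted threshold in any of these fits.

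**Figure D3:**
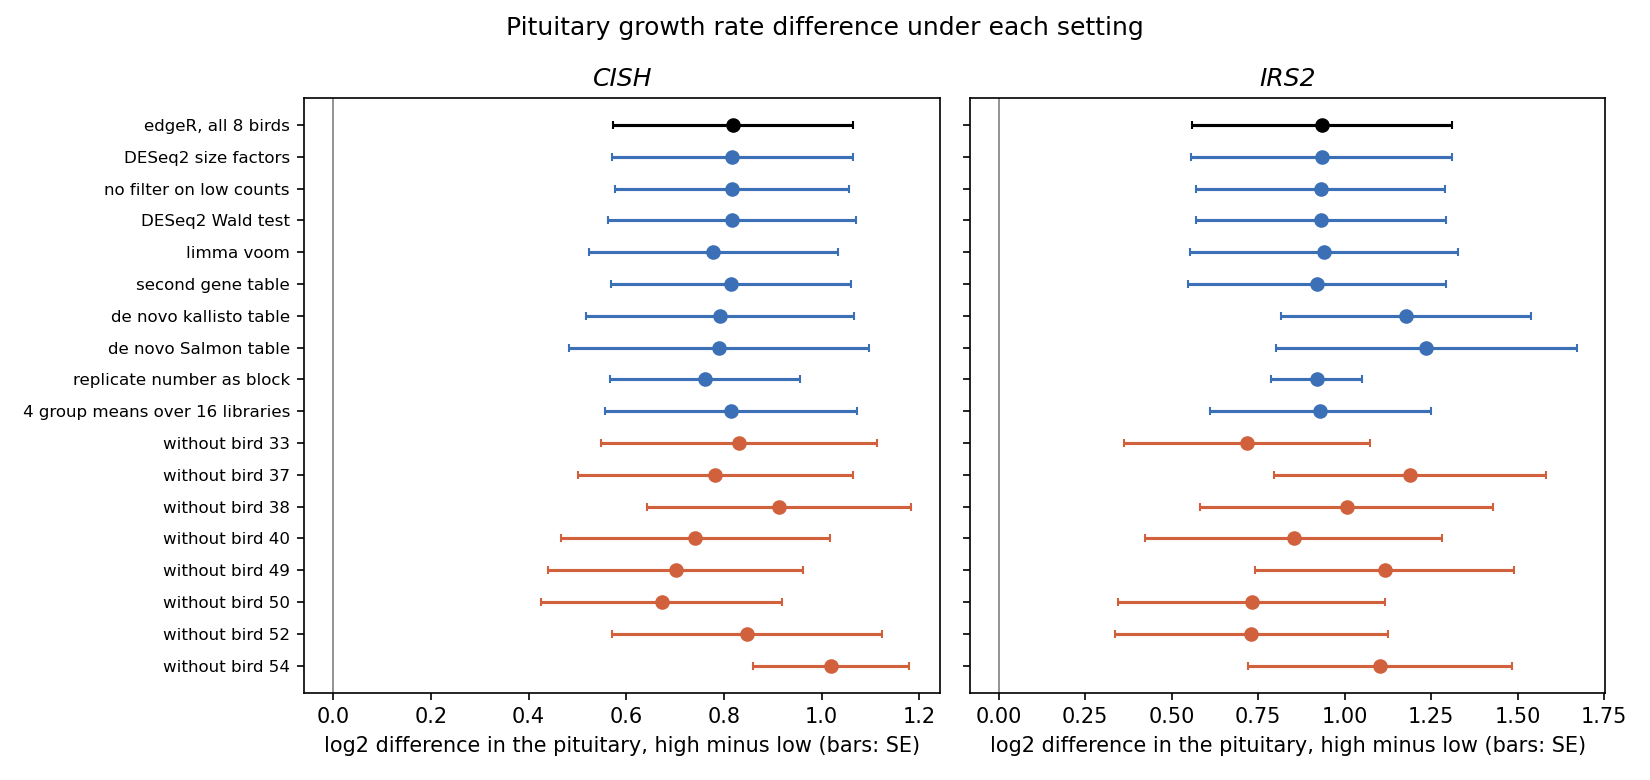
Pituitary log2 difference, high minus low growth rate (x axis; bars are SE), for CISH and IRS2 under 18 settings each (y axis): the main fit in black, other tools, tables and designs in blue, and fits without 1 bird in orange. All points lie above 0, from 0.67 to 1.02 for CISH and from 0.72 to 1.24 for IRS2.

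The ligands and receptors upstream of these genes were then set beside them. GHR, the GH receptor, was 106 ± 10.4 CPM in low-growth and 93.1 ± 8.28 CPM in high-growth pituitaries (SD, n = 4), a log2 difference of -0.18 ± 0.10 (unadjusted p = 0.114 in edgeR). PRLR, the prolactin receptor, which also signals through JAK2 and STATs, was 51.3 ± 13.5 and 45.1 ± 5.95 CPM. PRL itself was 22345 ± 9642 and 25245 ± 12547 CPM. GH was followed in the assembly. The assembled fragment with the best-scoring match to a protein named SOMA was used, and any other fragment of GH was not counted. It was 8100, 22373, 14368 and 13728 estimated CPM in low-growth birds 33, 37, 38 and 40 and 15769, 18577, 11357 and 9029 in high-growth birds 49, 50, 52 and 54, in the Salmon table. All 4 high-growth birds lay inside the range of the low-growth birds. STAT5B, IGF1, GHRHR and SOCS3 were not analysed here.

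Of 22 measured genes of the GH and IGF axis, 4 of them members, 0 were called in either direction in the pituitary and 3 had an unadjusted p under 0.05, all higher at high growth rate. These were CISH, IRS2 and IGFBP7, a secreted IGF-binding protein with a log2 difference of 0.27 ± 0.11. The level of IGFBP7 was 699 ± 65.0 CPM in low-growth and 845 ± 89.5 CPM in high-growth pituitaries (SD, n = 4). IGFBP4, which binds IGFs and keeps them from their receptor, was 25.7 ± 4.51 and 17.9 ± 5.90 CPM, a log2 difference of -0.51 ± 0.23 that missed that level. The median of the list was 0.12, with 14 genes higher and 8 lower, beside a median of 0.00 and 51.3% higher over all genes tested.

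Between receptor and target stand the kinases and STATs. Of 15 measured JAK and STAT signalling genes, none of them a member, 0 were called, 0 had an unadjusted p under 0.05, 4 were higher and 11 lower, and the median log2 difference was -0.13. JAK2, the kinase on the GH receptor, was 51.1 ± 10.9 and 42.4 ± 2.55 CPM, a log2 difference of -0.27 ± 0.14. The leptin receptor gene LEPR had a log2 difference of -0.17 ± 0.10 and JAK1 one of -0.14 ± 0.10. None of these 3 passed the unadjusted level.

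Among 19 measured JAK and STAT inhibitors, 3 of them members, 0 were called, only CISH had an unadjusted p under 0.05, and 9 were higher and 10 lower, with a median log2 difference of -0.01. The ubiquitin ligase gene CBLB had a log2 difference of -0.31 ± 0.18 and SOCS5 one of -0.14 ± 0.12. The other SOCS genes measured, SOCS4, SOCS6 and SOCS7, had log2 differences of 0.01 ± 0.10, -0.11 ± 0.18 and 0.13 ± 0.14. Among 12 STAT-induced immediate genes, 3 of them members, 0 were called and CISH alone had an unadjusted p under 0.05. The others with the smallest p lay on the other side of 0. The transcription factor genes FOS and EGR1 had log2 differences of -0.76 ± 0.44 and -0.64 ± 0.46 and the cell cycle inhibitor gene CDKN1A one of -0.30 ± 0.24, and the list median was -0.13.

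Around IRS2, 26 insulin and PI3 kinase signalling genes were measured. None was called, only IRS2 had an unadjusted p under 0.05, 11 were higher and 15 lower, and the median log2 difference was -0.04. PIK3R1, the regulatory subunit that docks on IRS proteins, had a log2 difference of 0.29 ± 0.15, the related docking gene IRS1 one of 0.33 ± 0.18 and the phosphatase gene PHLPP1 one of 0.15 ± 0.12. IRS1 was 11.4 ± 1.63 and 14.3 ± 2.72 CPM in low-growth and high-growth pituitaries. Of 18 measured FOXO target genes 0 were called, IRS2 alone had an unadjusted p under 0.05, and the median was 0.02. PIK3IP1, CITED2 and GADD45A had log2 differences of -0.26 ± 0.14, 0.46 ± 0.27 and 0.37 ± 0.25.

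Glucocorticoids also affect body growth, and 11 genes they induce were measured. None was called, and 6 were higher and 5 lower. An unadjusted p under 0.05 in edgeR was found for 2 of the 11, beside 1.97% of all genes tested. DDIT4, a stress-induced inhibitor of mTOR, was 84.1 ± 24.5 and 146 ± 49.3 CPM, a log2 difference of 0.80 ± 0.27 (unadjusted p = 0.0149, adjusted p = 1.00 in edgeR). CEBPD, a transcription factor gene, was 152 ± 64.6 and 275 ± 105 CPM, a log2 difference of 0.86 ± 0.35 (unadjusted p = 0.0331, adjusted p = 1.00 in edgeR). The metallothionein gene MT4 had a log2 difference of 1.06 ± 0.56 and CRISPLD2 one of -0.43 ± 0.45, and the list median was 0.01.

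Of 14 measured interferon response genes, the class that SOCS1 is known to restrain, 0 were called and 0 had an unadjusted p under 0.05 in the pituitary. There, 1 was higher and 13 were lower at high growth rate, with a median log2 difference of -0.34, beside 51.3% higher over all genes tested. The 14 genes were measured in the same 8 birds and are not 14 independent observations. PARP12 had a log2 difference of -0.36 ± 0.17, the double-stranded RNA sensor kinase EIF2AK2 one of -0.33 ± 0.18, the RNA sensor IFIH1 one of -0.43 ± 0.27 and DTX3L one of -0.32 ± 0.22. In the hypothalamus 11 of the 14 were higher and 3 lower, with a median of 0.09, beside 48.7% higher over all genes tested. 

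In the hypothalamus none of the genes on these lists was called between growth rates, and MT4, at a log2 difference of 0.29 ± 0.13, alone had an unadjusted p under 0.05. Nearest to that level were the PI3 kinase subunit gene PIK3R5 (0.38 ± 0.19), the mitophagy receptor gene BNIP3 (0.15 ± 0.08), CRISPLD2 (-0.48 ± 0.26), the transcription factor gene ZBTB16 (-0.50 ± 0.28), the lipid phosphatase gene INPP5D (0.47 ± 0.26) and PAPPA2 (-0.36 ± 0.20). The kinase gene TYK2 had a log2 difference of -0.13 ± 0.07 and the cytokine receptor gene LIFR one of 0.13 ± 0.09. The immediate early genes FOS and EGR1, at -0.39 ± 0.24 and -0.28 ± 0.17, and the insulin receptor gene INSR, at -0.16 ± 0.10, lay below 0, as did IGF2 at -0.75 ± 0.49. PTPRC and PTPN6, phosphatase genes of blood-derived cells, had log2 differences of 0.73 ± 0.42 and 0.62 ± 0.41, and the interferon genes IRF8 and ZNFX1 had 0.47 ± 0.41 and -0.17 ± 0.23. Beside these, microglia and macrophage markers (7 of 11 measured, none at 0 in every library) summed to 115 to 219 CPM in low-growth and 144 to 375 CPM in high-growth hypothalami. The top value was in bird 50, and birds 49, 52 and 54, at 190, 144 and 174 CPM, lay inside the low-growth range. Neuron markers (10 of 13 measured) summed to 5669 to 5899 CPM in low-growth and 4791 to 5497 CPM in high-growth hypothalami, without overlap. Of these 10 genes NEFH alone had an unadjusted p under 0.05 in edgeR (log2 difference -0.42 ± 0.15). GAD2, GAD1, NEFL and SYT1 had -0.32 ± 0.18, -0.28 ± 0.14, -0.24 ± 0.13 and -0.19 ± 0.12. RBFOX3, ELAVL4, SNAP25 and STMN2 had -0.07 ± 0.12, -0.07 ± 0.07, -0.06 ± 0.11 and -0.04 ± 0.08, and SLC17A6 had 0.07 ± 0.13. The sum thus does not show a shift of all 10. The part of microglia, macrophages and neurons was not tested.

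Between the tissues, calls on the same lists stand beside 14.9% of all genes called higher and 19.5% called lower in the pituitary. Of 19 JAK and STAT inhibitors, 3 were called higher in the pituitary, which were SOCS2, CISH and the tyrosine phosphatase gene PTPN1 (1.43 ± 0.12), and 1 lower, PTPN6 (-1.07 ± 0.34). SOCS4, SOCS5, SOCS6 and SOCS7 had log2 differences of -0.09 ± 0.08, 0.51 ± 0.07, -0.27 ± 0.11 and -0.49 ± 0.09, all under a 2-fold difference. GHR had a log2 difference of 0.74 ± 0.10, also under 2-fold. PRLR (1.25 ± 0.14), JAK2 (1.37 ± 0.09) and STAT3 (1.02 ± 0.10) were called higher in the pituitary.

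Of 22 GH and IGF axis genes 8 were called higher and 4 lower in the pituitary. PAPPA2, a protease that frees IGF from its binding proteins, led the first group at a log2 difference of 5.83 ± 0.18, ahead of SOCS2. With all 16 libraries scaled together, its level was 188 ± 60.4 CPM in the pituitary and 3.28 ± 0.703 CPM in the hypothalamus (SD, n = 8). IGFBP7 had a log2 difference of 1.76 ± 0.08. IGFALS shared the lower group with the somatostatin receptor gene SSTR3 (-2.90 ± 0.13), STC2 (-1.90 ± 0.31) and the IGF-binding protein gene IGFBP2 (-1.72 ± 0.15). Of 15 JAK and STAT signalling genes 6 were called higher and 1 lower, with LEPR at 3.93 ± 0.16.

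**Figure D4:**
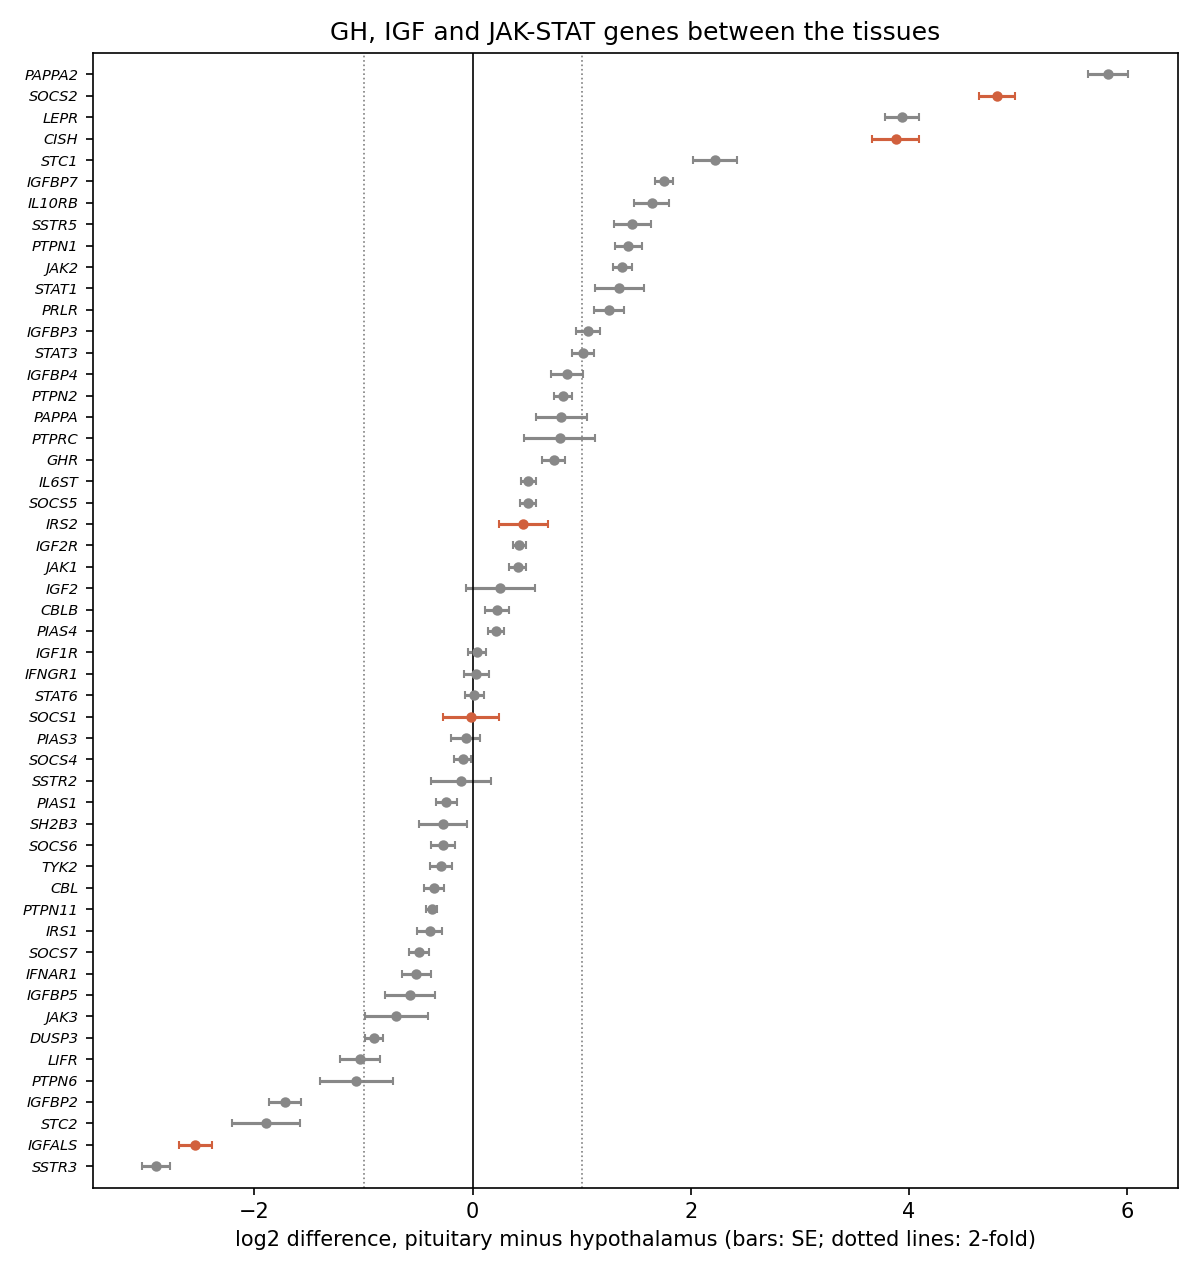
Log2 difference between pituitary and hypothalamus (x axis; bars are SE over 16 libraries) for the 52 measured genes of the GH and IGF axis and of JAK and STAT signalling and its inhibitors, ordered by value, with the 5 members in orange and dotted lines at a 2-fold difference. SOCS2 (4.81) and CISH (3.88) sit near the top, IGFALS (-2.54) near the bottom, and IRS2 (0.47) and SOCS1 (-0.01) between the dotted lines.

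How the members varied together between birds was examined in 25 relations over 8 birds, 10 pairs in each tissue and each member between its tissues. None passed Benjamini-Hochberg adjustment over the 25 by exact two-sided permutation. In the hypothalamus CISH and IRS2 had r = 0.76 (exact permutation p = 0.0315, adjusted 0.355) and rho = 0.57 (exact permutation p = 0.151, adjusted 0.643), and r was 0.75 without the 2 birds farthest from the median of CISH. SOCS2 and IRS2 there had r = 0.77 (exact permutation p = 0.0228, adjusted 0.355) and rho = 0.55 (exact permutation p = 0.171, adjusted 0.643), and r fell to 0.27 without the 2 farthest birds, so that relation rests on them. In the pituitary SOCS1 and IGFALS had r = 0.67 (exact permutation p = 0.0723, adjusted 0.355) and rho = 0.86 (exact permutation p = 0.0107, adjusted 0.268), the smallest rank p of the 25, and r was 0.79 without the 2 birds farthest from the median of SOCS1. CISH and IRS2 there had r = 0.59 (exact permutation p = 0.128, adjusted 0.355) and rho = 0.43 (exact permutation p = 0.299, adjusted 0.643). Bird 33 had the lowest hypothalamus level of both CISH and IRS2, and bird 40 the highest of IRS2. After centring within each growth group, CISH and IRS2 in the hypothalamus had r = 0.89, with an adjusted permutation p of 0.0915. That p is not exact, since the permutation also swapped birds between groups that were centred apart. For a member between the 2 tissues of a bird, r ran from -0.54 for IGFALS to 0.59 for SOCS1. Some of these relations rest on few reads. SOCS1 had 15 to 51 and IGFALS 10 to 32 counts per pituitary library, and SOCS2 6 to 17 per hypothalamus library.

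The named genes most like each member, up to 3, were sought among genes of at least 5 CPM. Pearson's r was taken over 16 libraries centred on their tissue. This is a description only, since libraries of 1 bird are not independent. The genes named had the highest r of 9261 candidates (9262 for SOCS1). The highest of so many can be large without any relation, and none was tested. CISH was most like CHAF1A, a chromatin assembly factor gene, at r = 0.84, then INSM1, a neuroendocrine transcription factor gene, and SPOCK2, a matrix proteoglycan gene, at 0.82 each. SOCS2 was most like SERPINH1, a collagen chaperone gene (0.83), NR4A1, an immediate early nuclear receptor gene (0.80), and TXNIP, a glucose-responsive gene also on the FOXO list (0.79). For IRS2 these were ORMDL2 (0.91), POLD2 (0.91) and KANSL3 (0.90), for SOCS1 C1orf52 (0.81) and ALKBH2 (0.80), and for IGFALS ANKRD9 (0.87), TMEFF2 (0.84) and CYP27A1 (0.83). The likeness was not even between tissues, by r in the same libraries that picked the genes. IGFALS rested on only 10 to 32 counts per pituitary library. POLD2 followed IRS2 at r = 0.92 in the pituitary and 0.92 in the hypothalamus, whereas ANKRD9 followed IGFALS at 0.95 in the pituitary and 0.23 in the hypothalamus.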

How the data were processed

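Whole-number counts of reads per gene (ENSACDG identifiers) were deposited by the authors for 16 libraries and used as the main table. A second gene table (ENSABRG identifiers) holds counts too, and the authors also deposited estimated counts from kallisto and from Salmon for assembled genes, rounded here. RNA had RIN values over 7 and the kit (TruSeq v2) does not mark strand, per the labels' protocols, so reads of overlapping antisense genes cannot be told apart. The submitters' processing notes list STAR, RSEM, kallisto, Salmon, DESeq2 and FastQC, with no versions. The genome build named in those notes is Sscrofa11.1, a pig build. The authors' deposited comparison tables give a ratio of means, its log2 value, p-values and adjusted p-values, per the file headers. Their sign was turned to high minus low, which 51 of 51 pituitary and 62 of 62 hypothalamus genes called there share with the counts. They also give percent identity of protein matches, per the file headers.

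Counts were filtered with filterByExpr, scaled by TMM and tested with edgeR 4.0.16 quasi-likelihood F tests in R 4.3.3 (limma 3.58.1 and DESeq2 1.42.0 as alternatives), adjusted over all genes, threshold 0.05. Each tissue was fitted on its 8 libraries, and tissue and interaction on 16 with 4 group means. The SE and 95% intervals given for edgeR were worked back from each log2 difference and its F statistic, so they are approximate. Same-bird libraries deviated together (r from 0.18 to 0.39 in all 8 birds), and the bird was a block in an alternative. Chi-square per degree of freedom between libraries of a group was 8.33 to 78.0, well above sampling noise, so none was a repeat of another. Each library is 1 bird and 1 tissue. Fits were tested first on simulated independent libraries, with the same spread for every gene and changes larger than the members' growth differences. That does not show how well differences of the size seen here would be found. Correlations used log2 CPM with a prior count of 2.

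The members and gene lists were chosen with earlier results of these data known. List genes named are the up to 4 with the smallest p in the pituitary and up to 2 in the hypothalamus, besides the SOCS family, tissue examples and cell markers, chosen after their values were seen. Of the 19448 genes, 9810 had a name. All 5 members are symbols of a RefSeq annotation (bAnsAns1.hap1.1), used for nothing else. Of the genes most like SOCS1, 1 is not reported here.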

Additional observations from a re-analysis of the deposited data

Results flagged for a closer look

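Each member, and GH, in each group of 4 libraries was examined for a single library far from the rest, 24 groups in all, and 1 was found. The assembled GH fragment was 34.1 estimated CPM in the hypothalamus of low-growth bird 38, against 4.87 to 8.98 in the other 3 low-growth hypothalami, a gap of 0.86 of the group's range. CISH and SOCS2 in that library, at 3.87 and 0.923 CPM, lay inside the range of the other low-growth hypothalami. GH averaged 14642 estimated CPM in low-growth pituitaries, so an equally small fraction of pituitary CISH or SOCS2 could not be seen within that range. PRL ran from 9.75 to 35.5 CPM in low-growth and from 9.02 to 11.7 CPM in high-growth hypothalami. The part of pituitary RNA in the library of bird 38 was not tested. Chance flags about 1 in 20 such groups.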

How the results depend on the processing

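Of 162 values under other settings 156 kept their direction and side of the threshold, and of 160 values without 1 bird 145 did. The rest, all small differences that passed no test, changed sign. Genes called between growth rates, 0 by edgeR, were 5 with DESeq2 and 1 with 4 group means in the pituitary and 2 with DESeq2 in the hypothalamus. For the interaction, DESeq2 called 1, kallisto 1 and Salmon 49. Between tissues kallisto called 30399 and Salmon 36622 assembled genes, against 4948 in the main table, and the median of all genes moved from 0.06 to 0.14 and 0.11. SOCS2 in the hypothalamus was -0.071 with kallisto and -0.038 with Salmon. The SOCS1 interaction was -0.056 with limma voom, -0.15 with kallisto, -0.29 with Salmon and -0.057 with the bird as a replicate block. The cause was not tested.

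Without 1 bird, the log2 difference ran from -0.047 to 0.26 for SOCS2 and from -0.081 to 0.35 for IGFALS in the pituitary, from -0.037 to 0.42 for CISH and from -0.054 to 0.22 for SOCS2 in the hypothalamus, and from -0.13 to 0.095 for SOCS1 between tissues. For the interaction it ran from -0.23 to 0.23 for SOCS1, from -0.22 to 0.29 for SOCS2 and from -0.026 to 0.45 for IGFALS. The replicate numbers shared by low-growth and high-growth birds gave r of both signs, from -0.25 to 0.40. The highest was for number 1 in the pituitary. Whether the numbers pair the birds was not tested. With these numbers as a replicate block 0 pituitary genes were called in edgeR. CISH was 0.76 (unadjusted p = 0.00723 in edgeR) and IRS2 0.92 (unadjusted p = 0.000341 in edgeR). With the bird as a block 4971 genes were called between tissues, and no other call changed. SOCS2 in the hypothalamus and IGFALS and SOCS1 in the pituitary rest on 6 to 51 counts per library, which limits what could be detected.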
